A study of Rattus norvegicus with 17 samples.

Results

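The comparison was between fetal testes of rat litters whose dams received 11 mg/kg/d dipentyl phthalate (DPeP), a phthalate ester used as a plasticizer, and testes of litters whose dams received corn oil alone. Libraries were assigned by their titles, 3 at 11 mg/kg/d (libraries 03, 16 and 17) and 3 vehicle (01, 08 and 15), out of 17 libraries in all. The other libraries came from dams given 1 (3), 100 (3) or 300 mg/kg/d (5). All dams were timed pregnant Sprague Dawley rats, labelled wild type, dosed by oral gavage at 2.5 mL/kg over gestational days 17 to 21, and testes were taken on day 21. RNA for a library came from 1 testis, or from 2 testes of a single litter pooled. The labels do not say that the libraries of a group came from different dams, so p-values measure the spread between these libraries, which may be partly technical. Whole testis was sequenced after polyA selection, so fewer cells of a type and less RNA per cell cannot be told apart in any value below.

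In the fetal testis, Leydig cells of the interstitium make testosterone from cholesterol and secrete insulin-like peptide 3. Luteinizing hormone acts on them through its receptor. Cholesterol is taken up or synthesized, carried into mitochondria by the STAR protein, cleaved to pregnenolone by CYP11A1 and converted to androgens by 3-beta-hydroxysteroid dehydrogenase, CYP17A1 and 17-beta-hydroxysteroid dehydrogenase 3. Several phthalate esters with side chains of intermediate length are known to lower fetal testosterone production in rats, with lower RNA of these genes.

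The 11 mg/kg/d libraries held 16441873 to 18755376 gene counts and the vehicle libraries 15948971 to 17920695. Genes of the mitochondrial genome took 4.96 to 5.52% of gene counts at 11 mg/kg/d and 5.58 to 6.16% in vehicle, without overlap, and cytosolic ribosomal proteins took 4.55 to 5.03% and 4.60 to 5.45%. Their part in the results was not tested. The root mean square log2 distance between libraries was 0.473 to 0.524 within 11 mg/kg/d, 0.473 to 0.494 within vehicle and 0.463 to 0.530 between the groups, ranges that overlap. Markers of Sertoli, Leydig and germ cells were present, as the tissue label has it. Amh, the Sertoli cell hormone, averaged 1374 ± 56.6 CPM (counts relative to the TMM-scaled total of the library) at 11 mg/kg/d and 1421 ± 230 in vehicle (SD, n = 3 each). Of 30 germ cell markers matched, all were expressed highly enough to be tested.

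No gene differed between 11 mg/kg/d and vehicle at an adjusted p under 0.05 in edgeR's quasi-likelihood test of 18005 genes (0.0%). The smallest adjusted p was 0.0604. At an adjusted p under 0.1 there were 10 genes (0.0555%), 2 higher and 8 lower at 11 mg/kg/d. At an unadjusted p under 0.05 there were 633 genes (3.52%), 272 higher and 361 lower. All 3 libraries at 11 mg/kg/d lay below all 3 vehicle libraries for 1250 genes (6.94%) and above them for 950 (5.28%). The median log2 fold change over all genes was 0.0054, and its median size was 0.13. Other tools called more genes. DESeq2 called 26 genes, 5 higher and 21 lower, and limma voom called Olfm2 and Mrap, both lower. The 2 groups fitted alone gave 10 calls, no filter on low counts gave 19, and the fit without libraries 05 and 18 at 100 mg/kg/d, which stand apart from the rest of the series, also gave 19. Leaving out 1 library at a time gave no call, except that without vehicle library 08 Olfm2 and Procr were called as lower. The genes below are therefore given as levels and fold changes with their errors, and none is reported as a change at the threshold of the main test.

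The steroidogenic genes of the Leydig cell had lower values at 11 mg/kg/d. Cyp17a1, which converts progestins to androgens, had 828, 752 and 698 CPM in libraries 03, 16 and 17 at 11 mg/kg/d, against 1641, 1286 and 1584 CPM in vehicle libraries 01, 08 and 15. The groups did not overlap, and the highest library at 11 mg/kg/d was well below the lowest of vehicle. The log2 fold change was -0.99 ± 0.20 (SE), or 0.505 times the vehicle level, with an adjusted p of 0.136 in edgeR. DESeq2 gave an adjusted p of 0.00338, and Cyp17a1 was called in 4 of the 16 alternatives. Cyp17a1 (ENSRNOG00000020035) spans chr1:245535462-245541573 on the - strand of mRatBN7.2.

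Star (ENSRNOG00000015052) spans chr16:66264807-66271672 on the - strand of mRatBN7.2. It is the carrier of cholesterol into mitochondria, and had 421, 379 and 397 CPM at 11 mg/kg/d, against 549, 659 and 688 CPM in vehicle. The libraries at 11 mg/kg/d lay close together and all below vehicle. Its log2 fold change was -0.66 ± 0.21 (adjusted p = 0.947). Fdx1, the ferredoxin that passes electrons to mitochondrial P450 enzymes, had 122, 122 and 96.4 CPM at 11 mg/kg/d, against 153, 165 and 211 CPM in vehicle, again with no overlap (log2 fold change -0.64 ± 0.20, adjusted p = 0.918). Fdx1 was singled out after its values were seen.

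Cyp11a1, the side chain cleavage enzyme, had 775, 633 and 601 CPM at 11 mg/kg/d, against 1078, 618 and 1051 CPM in vehicle. Here vehicle library 08 was as low as the exposed libraries, so the groups overlapped (log2 fold change -0.45 ± 0.17, adjusted p = 0.992). Hsd3b1, 3-beta-hydroxysteroid dehydrogenase, had 1064, 1153 and 675 CPM at 11 mg/kg/d, against 1225, 1155 and 1343 CPM in vehicle. Library 17 was low and library 16 all but reached vehicle (log2 fold change -0.36 ± 0.24, adjusted p = 0.992). Hsd3b1 has near-identical paralogs in the rat, among which the counting may have split reads. Hsd17b3, the last enzyme of testosterone synthesis, averaged 81.6 ± 5.85 CPM at 11 mg/kg/d and 94.4 ± 11.0 CPM in vehicle, with overlap.

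**Figure D1:**
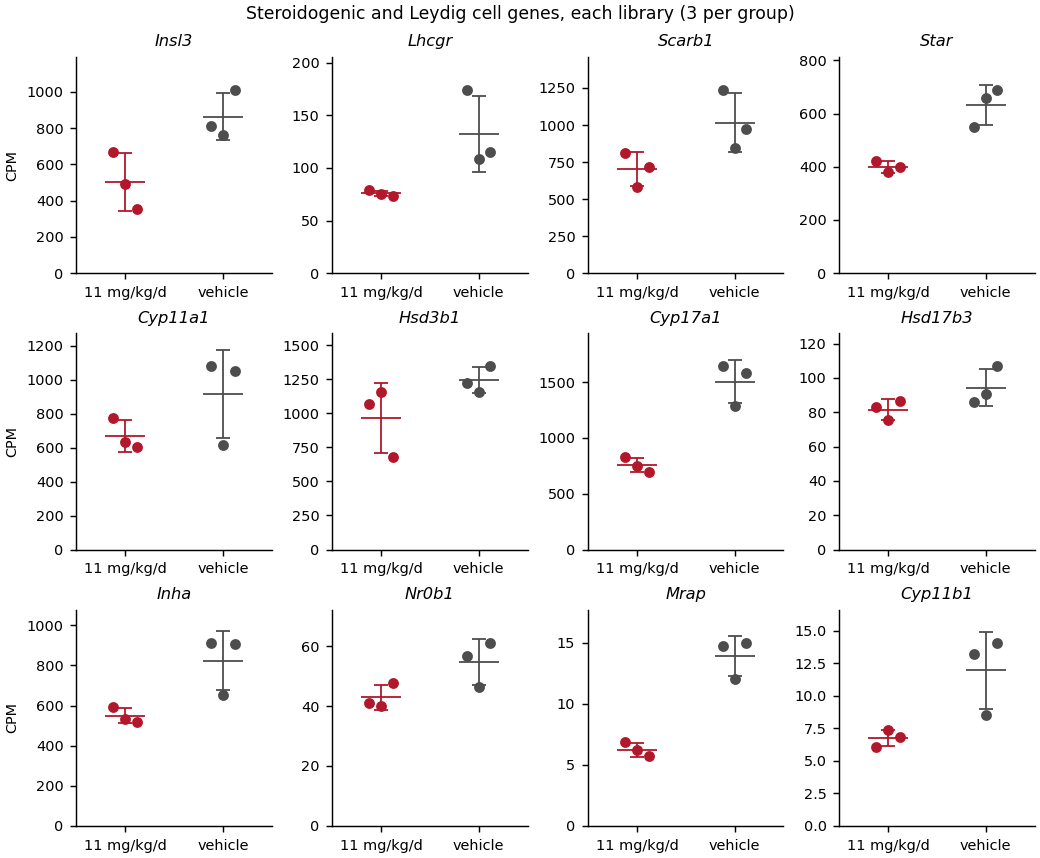
CPM of 12 steroidogenic and Leydig cell genes in each library (points; 11 mg/kg/d in red, vehicle in grey), with group mean (dash) and SD (bars, n = 3). The 11 mg/kg/d points of Cyp17a1 (698 to 828 CPM), Star, Lhcgr, Insl3, Scarb1, Inha, Mrap and Cyp11b1 all lie below the vehicle points, whereas Cyp11a1, Nr0b1 and Hsd17b3 overlap.

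Upstream in the same cells, Lhcgr, the luteinizing hormone receptor, had 78.6, 75.3 and 73.6 CPM at 11 mg/kg/d, against 174, 109 and 115 CPM in vehicle. The exposed libraries were nearly equal, and vehicle library 01 was the highest by far (log2 fold change -0.80 ± 0.24, adjusted p = 0.779). Scarb1, the high density lipoprotein receptor that delivers cholesterol, had 813, 584 and 717 CPM at 11 mg/kg/d, against 1236, 843 and 972 CPM in vehicle, with library 03 just under the lowest vehicle library (log2 fold change -0.53 ± 0.19, adjusted p = 0.992).

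Among secreted products, Insl3, the peptide that guides testis descent, had 668, 492 and 351 CPM at 11 mg/kg/d, against 814, 764 and 1010 CPM in vehicle. The exposed libraries differed among themselves and all lay below vehicle (log2 fold change -0.78 ± 0.27, adjusted p = 0.992). Inha, the alpha subunit of inhibin, had 591, 535 and 520 CPM at 11 mg/kg/d, against 913, 654 and 906 CPM in vehicle (log2 fold change -0.59 ± 0.17, adjusted p = 0.779). Inha is on the list of Sertoli cell markers as well as that of Leydig cell markers. Insl3 and Inha each overlap another gene in the annotation, and the library kit does not mark strand, so their counts carry that uncertainty. Per length, Cyp17a1 averaged 959 TPM at 11 mg/kg/d and 1794 TPM in vehicle, Insl3 186 and 301 TPM, and Lhcgr 53.4 and 88.4 TPM.

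Mrap, the accessory protein that brings the corticotropin receptor to the cell surface, was among the genes with the smallest p. It had 6.84, 6.18 and 5.71 CPM at 11 mg/kg/d, against 14.7, 12.1 and 15.0 CPM in vehicle. The level was 0.449 times that of vehicle (log2 fold change -1.16 ± 0.20, adjusted p = 0.0604), and 5 of the 16 alternatives called it. Mrap (ENSRNOG00000021524) spans chr11:29992034-30003024 on the + strand of mRatBN7.2. Cyp11b1, an 11-beta-hydroxylase typical of the adrenal cortex, had 6.06, 7.34 and 6.86 CPM at 11 mg/kg/d, against 13.2, 8.54 and 14.1 CPM in vehicle (log2 fold change -0.82 ± 0.36, adjusted p = 0.992). Of 8 adrenal cortex genes matched, 4 were expressed highly enough to be tested, and all 4 had negative fold changes (median -0.60). The genes too low to be tested included Cyp21a1, the 21-hydroxylase, and Mc2r, the corticotropin receptor. Summed over all 8 matched genes the level was 55.9 to 63.7 CPM at 11 mg/kg/d and 70.9 to 94.9 CPM in vehicle. Most of that sum was Nr0b1, also a Leydig cell marker, which averaged 42.9 CPM at 11 mg/kg/d and 54.7 CPM in vehicle. Mrap, Cyp11b1 and Nr0b1 belong to this list, so the part of any adrenal tissue in their values was not tested.

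Over the whole Leydig cell marker list, 17 of 19 genes had negative fold changes, and none was called. At 11 mg/kg/d 9 of them lay below vehicle in every library and 0 above, beside 6.94% and 5.28% of all genes. The list's median log2 fold change was -0.42, against 0.0054 for all genes, and its summed level was 5876 to 6946 CPM at 11 mg/kg/d and 7750 to 9546 CPM in vehicle. Of 17 genes of androgen synthesis, some of which are also Leydig markers, 14 were negative and 8 lay below vehicle without overlap, beside 6.94% of all genes (median -0.33). The exceptions included Akr1c14, an enzyme that reduces dihydrotestosterone, at 1.70, 4.64 and 5.24 CPM at 11 mg/kg/d, against 1.65, 1.79 and 2.29 CPM in vehicle. By contrast in sign, 18 transcription factors of steroidogenic cells split evenly, 9 positive and 9 negative, with a median of 0.02. Nr0b1, the orphan receptor DAX1, averaged 42.9 ± 4.28 CPM at 11 mg/kg/d and 54.7 ± 7.52 CPM in vehicle and overlapped, as did Cebpb, a transcription factor induced by cAMP, at 31.0 ± 4.21 and 39.6 ± 8.75 CPM.

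A panel of 22 tested genes used for phthalate effects on fetal testis had 19 negative fold changes, with 12 genes below vehicle and 1 above in every library, beside 6.94% and 5.28% of all genes (median -0.45). It overlaps the lists above and was assembled from genes known to respond to phthalates. Svs5, a seminal vesicle secretory protein, had the lowest fold change in it, at 85.0, 44.4 and 46.0 CPM at 11 mg/kg/d, against 268, 127 and 178 CPM in vehicle (log2 fold change -1.71 ± 0.48, adjusted p = 0.719). The 1 gene above vehicle was Cyp46a1, cholesterol 24-hydroxylase, at 20.0, 16.0 and 14.0 CPM at 11 mg/kg/d, against 10.6, 12.8 and 13.3 CPM in vehicle (log2 fold change 0.44 ± 0.22, adjusted p = 0.992).

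The starts of 3 Leydig cell genes are shown as examples of genes of the list that hold a short element. AGGTCA, read on both strands, is the half-site bound by NR5A1 (steroidogenic factor 1) and by many other nuclear receptors, and it was searched in the 250 bases before the start of transcription, from the RefSeq promoters of GRCr8, a later build than that of the counts. It was chosen after the fold changes were seen. Of the promoters of all genes, 13.47% hold it, and of the 30 androgen synthesis and Leydig marker genes 22 had a promoter, of which 8 hold it. Among the 12 lower genes with the smallest p and no overlap, 8 had a promoter and 1 holds it (12.5%), about the share of all promoters. Amh, whose level was nearly the same in both groups, holds 2. Capitals mark the element. A match does not show that a factor binds there.
Cyp11a1 (chr8:67318415-67318664, + strand): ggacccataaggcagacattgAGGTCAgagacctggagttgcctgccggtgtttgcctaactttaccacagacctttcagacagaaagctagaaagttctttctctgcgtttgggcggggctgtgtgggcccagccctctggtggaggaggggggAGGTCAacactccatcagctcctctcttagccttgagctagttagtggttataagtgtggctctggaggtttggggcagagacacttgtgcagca
Insl3 (chr16:18432939-18433188, + strand): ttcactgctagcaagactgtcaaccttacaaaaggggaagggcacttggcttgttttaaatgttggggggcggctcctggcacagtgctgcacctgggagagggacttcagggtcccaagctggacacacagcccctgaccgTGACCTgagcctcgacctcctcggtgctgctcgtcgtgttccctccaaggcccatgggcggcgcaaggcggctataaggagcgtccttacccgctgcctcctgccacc
Lhcgr (chr6:11415165-11415414, + strand): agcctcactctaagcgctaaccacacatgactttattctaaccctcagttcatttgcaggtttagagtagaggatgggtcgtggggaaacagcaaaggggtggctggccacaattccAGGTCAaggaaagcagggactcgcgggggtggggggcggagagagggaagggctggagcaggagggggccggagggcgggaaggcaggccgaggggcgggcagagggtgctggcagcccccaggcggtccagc
The element begins 229 and 95 bases before the start in Cyp11a1, 108 in Insl3 and 133 in Lhcgr. Promoters of Star, Cyp17a1, Scarb1 and Mrap are not shown.

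Outside steroid synthesis, the gene with the smallest p of all was Olfm2, a secreted olfactomedin domain glycoprotein. Olfm2 (ENSRNOG00000020519) spans chr8:19204475-19282117 on the - strand of mRatBN7.2. It had 2.97, 4.25 and 4.66 CPM at 11 mg/kg/d, against 12.5, 8.66 and 11.7 CPM in vehicle. The highest exposed library was well below the lowest vehicle library (log2 fold change -1.46 ± 0.23, adjusted p = 0.0604). Olfm2 was called as lower in 8 of the 16 alternatives, more than any other gene, and its fold change ran from -1.61 to -1.30 when libraries were left out in turn. Its promoter holds no AGGTCA but holds 1 cAMP response element, TGACGTCA (in capitals, both strands searched), which 1.72% of all promoters hold. Of the 22 promoters of androgen synthesis and Leydig marker genes 0 hold it. Among 39 promoters of genes described here, that of Olfm2 is the only 1. Whether a factor binds there was not tested.
Olfm2 (chr8:27539662-27539911, - strand): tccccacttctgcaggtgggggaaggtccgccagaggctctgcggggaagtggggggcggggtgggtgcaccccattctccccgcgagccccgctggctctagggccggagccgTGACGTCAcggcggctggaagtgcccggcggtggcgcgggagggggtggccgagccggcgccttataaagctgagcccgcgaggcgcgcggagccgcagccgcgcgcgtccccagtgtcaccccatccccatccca
The element begins 136 bases before the start.

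Besides Cyp17a1 and Gsta2, the genes with the smallest p among those lower at 11 mg/kg/d included 3 more that encode enzymes. Bhmt, betaine-homocysteine methyltransferase, had 10.4, 12.8 and 10.4 CPM at 11 mg/kg/d, against 22.1, 18.9 and 20.0 CPM in vehicle, with narrow spread in both groups (log2 fold change -0.86 ± 0.16, adjusted p = 0.0718). Ddc, the decarboxylase of DOPA and 5-hydroxytryptophan, had 15.5, 14.4 and 10.5 CPM at 11 mg/kg/d, against 23.1, 25.1 and 24.7 CPM in vehicle (log2 fold change -0.85 ± 0.18, adjusted p = 0.136). Vnn3, of the vanin family of pantetheinases, was the lowest by fold change, at 0.424, 0.276 and 0.524 CPM at 11 mg/kg/d, against 3.55, 2.57 and 1.98 CPM in vehicle (log2 fold change -2.70 ± 0.50, adjusted p = 0.0786). All 3 were without overlap, and DESeq2 called each of them, with adjusted p of 0.000278, 0.00565 and 0.000236.

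Pdyn, the precursor of dynorphin opioid peptides, had 21.2, 22.9 and 16.8 CPM at 11 mg/kg/d, against 51.1, 36.4 and 39.5 CPM in vehicle (log2 fold change -1.06 ± 0.19, adjusted p = 0.0718). Lefty2, an antagonist of Nodal signals, had 0.908, 1.33 and 1.99 CPM at 11 mg/kg/d, against 4.88, 4.86 and 4.15 CPM in vehicle (log2 fold change -1.70 ± 0.35, adjusted p = 0.136). Nodal itself was near the limit of detection, at 0.848, 0.607 and 0.576 CPM at 11 mg/kg/d, against 0.507, 0.168 and 0 CPM in vehicle (adjusted p = 0.992). Both Lefty2 and Nodal lay apart from vehicle, in opposite directions. The median of the 11 tested genes of the Nodal and Lefty list was 0.01.

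Procr, the protein C receptor, had 10.9, 16.8 and 7.64 CPM at 11 mg/kg/d, against 35.4, 17.4 and 51.5 CPM in vehicle. Vehicle library 08 nearly met library 16, and Procr was called when that vehicle library was left out (log2 fold change -1.56 ± 0.30 with all libraries, adjusted p = 0.0849). Gpc4, a glypican of the cell surface, had 55.3, 60.4 and 54.4 CPM at 11 mg/kg/d, against 106, 75.1 and 86.7 CPM in vehicle (log2 fold change -0.65 ± 0.13, adjusted p = 0.0859). Stc2, the secreted glycoprotein stanniocalcin 2, had 71.7, 64.3 and 54.8 CPM at 11 mg/kg/d, against 116, 102 and 108 CPM in vehicle (log2 fold change -0.77 ± 0.15, adjusted p = 0.109).

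**Figure D2:**
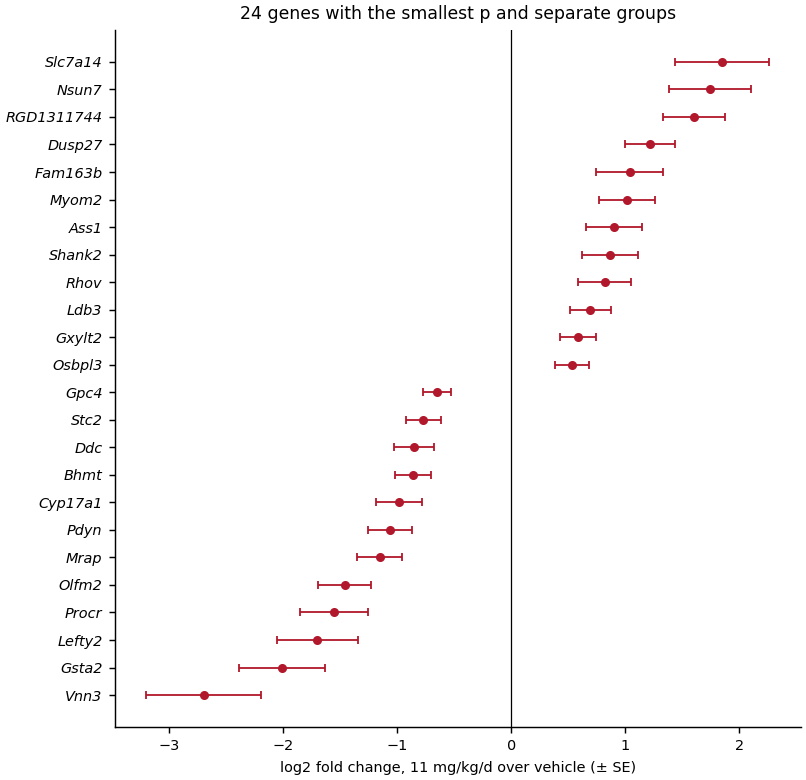
Log2 fold change (11 mg/kg/d over vehicle, x axis) with SE (bars) of the 12 named genes with the smallest p in each direction among those with groups that do not overlap. Fold changes run from -2.70 (Vnn3) to 1.85 (Slc7a14), and no gene was called in the main test.

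At the higher end, RGD1311744, a rat gene known here by its locus symbol only, had 194, 109 and 158 CPM at 11 mg/kg/d, against 56.5, 46.1 and 49.4 CPM in vehicle. It was 3.03 times the vehicle level (log2 fold change 1.60 ± 0.27, adjusted p = 0.0604), and 5 alternatives called it. RGD1311744 (ENSRNOG00000005960) spans chr8:39870563-39893187 on the - strand of mRatBN7.2. Dusp27, a phosphatase-like protein known from muscle in zebrafish, had 14.9, 15.6 and 12.2 CPM at 11 mg/kg/d, against 5.64, 6.81 and 5.89 CPM in vehicle (log2 fold change 1.22 ± 0.22, adjusted p = 0.0718). Dusp27 (ENSRNOG00000003722) spans chr13:78349365-78378458 on the - strand of mRatBN7.2. The remaining higher genes had adjusted p of 0.136 or more.

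A pair of sarcomere genes stood beside Dusp27. Myom2, myomesin 2 of the M band, had 118, 155 and 110 CPM at 11 mg/kg/d, against 51.4, 81.0 and 57.3 CPM in vehicle (log2 fold change 1.02 ± 0.24, adjusted p = 0.337). Ldb3, a protein of the Z disc, had 28.6, 32.5 and 29.3 CPM at 11 mg/kg/d, against 18.8, 18.3 and 18.8 CPM in vehicle (log2 fold change 0.69 ± 0.18, adjusted p = 0.563). The 13 skeletal muscle markers did not share that sign, with 6 positive and 7 negative and a median of -0.0089, and summed to 153 to 158 CPM at 11 mg/kg/d and 128 to 173 CPM in vehicle. Of 13 markers of the smooth-muscle-like peritubular myoid cells, 12 were positive, 4 lay above vehicle in every library, beside 5.28% of all genes, and the median was 0.23. Acta2, smooth muscle actin, had 642, 669 and 493 CPM at 11 mg/kg/d, against 478, 463 and 445 CPM in vehicle (log2 fold change 0.38 ± 0.20, adjusted p = 0.992). Myh11, smooth muscle myosin, had 178, 209 and 207 CPM at 11 mg/kg/d, against 170, 153 and 122 CPM in vehicle (adjusted p = 0.992). Myl9, a myosin light chain with the highest mean level of the list, was its negative member. It averaged 608 CPM at 11 mg/kg/d and 616 CPM in vehicle, with overlap (log2 fold change -0.018). Summed, the list held 2146 to 2665 CPM at 11 mg/kg/d and 2091 to 2194 CPM in vehicle, which overlapped.

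The other higher genes spanned several roles. Nsun7, of the NSUN family of RNA methyltransferases, had 2.48, 1.88 and 1.78 CPM at 11 mg/kg/d, against 0.570, 0.447 and 0.805 CPM in vehicle (log2 fold change 1.74 ± 0.36, adjusted p = 0.136). Slc7a14, of the cationic amino acid transporter family, had 4.78, 7.23 and 3.51 CPM at 11 mg/kg/d, against 1.71, 2.18 and 0.372 CPM in vehicle (log2 fold change 1.85 ± 0.42, adjusted p = 0.239). Ass1, argininosuccinate synthase of arginine synthesis, had 23.8, 31.6 and 27.5 CPM at 11 mg/kg/d, against 12.7, 16.9 and 14.7 CPM in vehicle (log2 fold change 0.90 ± 0.24, adjusted p = 0.633). Ass1 overlaps a gene on the other strand. Gxylt2, a xylosyltransferase that modifies Notch receptors, Osbpl3, an oxysterol binding protein relative, Shank2, a scaffold of synapses, Rhov, a small GTPase, and Fam163b had log2 fold changes of 0.53 to 1.04 and adjusted p of 0.633 to 0.728.

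Genes of cholesterol synthesis, which feeds the steroid pathway, had mostly negative fold changes. Of 23 genes tested, 19 had negative fold changes, 8 lay below vehicle without overlap and 0 above, beside 6.94% and 5.28% of all genes, and the median was -0.28. None was called. Hmgcs1, which makes HMG-CoA, had 228, 211 and 262 CPM at 11 mg/kg/d, against 265, 340 and 351 CPM in vehicle, with library 17 just under vehicle library 01 (log2 fold change -0.45 ± 0.16, adjusted p = 0.992). Msmo1, a sterol oxidase named after its values were seen, had 65.2, 59.5 and 76.8 CPM at 11 mg/kg/d, against 80.0, 110 and 103 CPM in vehicle (log2 fold change -0.54 ± 0.18, adjusted p = 0.992). Dhcr7, the last enzyme of the pathway, was level, at 132 ± 22.1 and 132 ± 9.88 CPM. Cholesterol uptake and transport had no common sign, with 12 positive and 8 negative among 20 genes and a median of 0.03.

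Glutathione transferases, which conjugate reactive compounds, had 17 negative fold changes among 18 genes, with 11 below vehicle in every library, beside 6.94% of all genes, and a median of -0.22. Gsta2 had 3.57, 4.64 and 4.14 CPM at 11 mg/kg/d, against 25.6, 10.6 and 13.9 CPM in vehicle (log2 fold change -2.01 ± 0.38, adjusted p = 0.0789). Gsta1, expressed far more, had 240, 246 and 191 CPM at 11 mg/kg/d, against 410, 379 and 439 CPM in vehicle (log2 fold change -0.86 ± 0.20, adjusted p = 0.316), and DESeq2 gave it an adjusted p of 0.0308. DESeq2 did not call Gsta2, which was called in 3 other alternatives. Alpha class genes are close paralogs in the rat, and reads may have been split among them. Mgst1 and Mgst2, membrane-bound relatives, averaged 52.9 ± 10.1 and 108 ± 8.85 CPM at 11 mg/kg/d, against 82.2 ± 1.38 and 154 ± 18.0 CPM in vehicle, both without overlap. Gstt3 was the positive member, at 293 ± 60.1 CPM at 11 mg/kg/d and 272 ± 76.5 CPM in vehicle, with overlap.

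Lipid genes that respond to PPAR receptors were mixed. Of 29 such genes and genes of fatty acid oxidation, 18 were negative, 7 lay below vehicle without overlap, beside 6.94% of all genes, and the median was -0.10. The 1 gene above, a share below the 5.28% of all genes, was Ppara, 1 of the receptors, at 6.77 ± 0.582 CPM at 11 mg/kg/d and 4.84 ± 0.961 CPM in vehicle (adjusted p = 0.992). Pparg, another of the receptors, lay below vehicle at very low levels, averaging 0.236 CPM at 11 mg/kg/d and 0.686 CPM in vehicle (adjusted p = 0.992). Ppard overlapped. Fabp3, a fatty acid carrier, had 191, 203 and 145 CPM at 11 mg/kg/d, against 238, 224 and 267 CPM in vehicle (adjusted p = 0.992). Me1, the malic enzyme that supplies NADPH for fatty acid synthesis, had 212, 248 and 224 CPM at 11 mg/kg/d, against 337, 326 and 321 CPM in vehicle (log2 fold change -0.52 ± 0.15, adjusted p = 0.728). The 12 fatty acid synthesis genes had a median of -0.03, and Fasn, fatty acid synthase, averaged 454 ± 56.7 CPM at 11 mg/kg/d and 399 ± 38.8 CPM in vehicle.

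**Figure D3:**
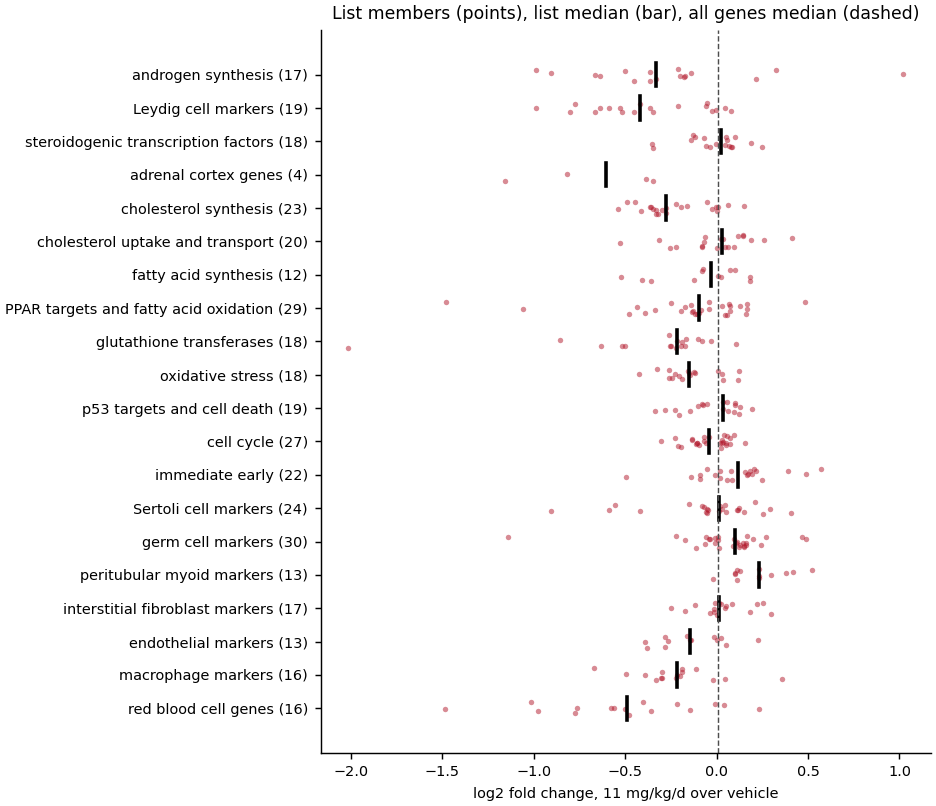
Log2 fold change (11 mg/kg/d over vehicle, x axis) of every tested member of 20 gene lists (points, number tested in brackets), with the list median (bar) and the median over all genes (dashed line, 0.0054). Leydig cell markers (median -0.42) and androgen synthesis (-0.33) lie left of the line, and peritubular myoid markers (0.23) right of it.

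Markers of other cell types gave these values. Sertoli cell markers had a median of 0.01 over 24 genes and germ cell markers 0.10 over 30. Interstitial fibroblast markers had a median of 0.01 over 17 genes and summed to 13850 to 14790 CPM at 11 mg/kg/d and 12990 to 13810 CPM in vehicle. Macrophage markers were negative for 14 of 16 genes (median -0.22), at 171 to 207 CPM summed at 11 mg/kg/d and 214 to 253 CPM in vehicle. Endothelial markers had a median of -0.14 over 13 genes. Lists for p53 targets and cell death (19 genes), cell cycle (27) and immediate early genes (22) had medians of 0.03, -0.04 and 0.12, with no member at an unadjusted p under 0.05. The same held for 18 oxidative stress genes (median -0.15). Collagens were positive for 14 of 16 genes and hedgehog pathway genes for 11 of 13, with medians of 0.13 and 0.14. Markers of mesonephric duct and epididymis (19 genes), Schwann cells and nerve (10) and liver-type plasma proteins (11) had medians of 0.02, 0.02 and -0.08. Receptors for pituitary and steroid hormones had a median of -0.04 over 15 genes.

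The summed level of red blood cell genes was lowest in library 17. Of 17 genes matched, 16 were tested. All genes matched summed to 2606 CPM in library 17, the lowest at 11 mg/kg/d, and to 7699 and 9428 CPM in the others. In vehicle they summed to 9076 to 10700 CPM. Hbb-b1, a beta globin, had 1632, 2082 and 528 CPM in libraries 03, 16 and 17 at 11 mg/kg/d, against 2505, 2231 and 2515 CPM in vehicle. Hba-a2, an alpha globin, had 5872, 7097 and 1973 CPM at 11 mg/kg/d, against 7754, 6615 and 7928 CPM in vehicle. For Hbb-b1, libraries 03 and 16 also lay below every vehicle library. Of the 16 genes tested, 14 had negative fold changes. At 11 mg/kg/d 4 lay below vehicle in every library and 0 above, beside 6.94% and 5.28% of all genes. The list's median was -0.49, and globin genes are close paralogs that overlap other gene models. Library 17 also held the lowest Insl3, Cyp17a1, Cyp11a1, Fdx1, Hsd3b1, Inha, Lhcgr and Mrap of its group, but not the lowest Star, Scarb1 or Cyp11b1. Insl3, Cyp17a1, Fdx1, Hsd3b1, Lhcgr and Mrap did not overlap vehicle, so leaving out library 17 could not reverse their sign. Without it the log2 fold change of Hsd3b1 was -0.16, against -0.36 with it, and that of Insl3 -0.57, against -0.78.

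Library 17 stood apart for a few other genes as well. Cdh1, E-cadherin of epithelial cells, had 61.7 and 58.0 CPM in libraries 03 and 16 and 2.98 CPM in library 17, against 145, 116 and 57.3 CPM in vehicle. Zp2, a zona pellucida protein, had 42.5 and 44.4 CPM in libraries 03 and 16 and 0.366 CPM in library 17, against 21.5, 44.1 and 24.7 CPM in vehicle. Neither gene separated the groups, and low Zp2 was also seen at 0.247 and 0.514 CPM in 2 of 3 libraries at 100 mg/kg/d.

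Among Leydig cell genes, the order of the group means by dose was not the same for every gene, and at 100 mg/kg/d the means include libraries 05 and 18, which stand apart. Mean Star was 632 CPM in vehicle, 429.7 at 1, 399 at 11, 228 at 100 and 148 at 300 mg/kg/d. Mean Cyp17a1 was 1504, 993, 759, 636 and 347 CPM in the same order, and mean Insl3 862, 862, 504, 226 and 168 CPM. For Insl3 the 1 mg/kg/d mean was that of vehicle, whereas for Star it lay closer to 11 mg/kg/d. Cyp11a1 did not follow the dose at its low end, with means of 916, 959, 670, 406 and 280 CPM, and Hsd3b1 had its highest mean at 100 mg/kg/d, with 1241, 1102, 964, 1387 and 685 CPM. Hsd17b3 was also highest there, with 94.4, 80.9, 81.6, 128 and 112 CPM. Mean Mrap was 13.9, 13.3, 6.24, 2.51 and 1.39 CPM, mean Olfm2 11.0, 10.3, 3.96, 1.49 and 1.35 CPM, and mean Pdyn 42.3, 39.7, 20.3, 17.9 and 15.7 CPM. Dusp27 averaged 6.11, 4.90, 14.2, 12.5 and 12.5 CPM, so that the 3 upper doses lay near each other. Mrap, Olfm2, Pdyn and Dusp27 were among the genes with the smallest p against vehicle, so their distance from vehicle at 11 mg/kg/d follows from that choice.

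**Figure D4:**
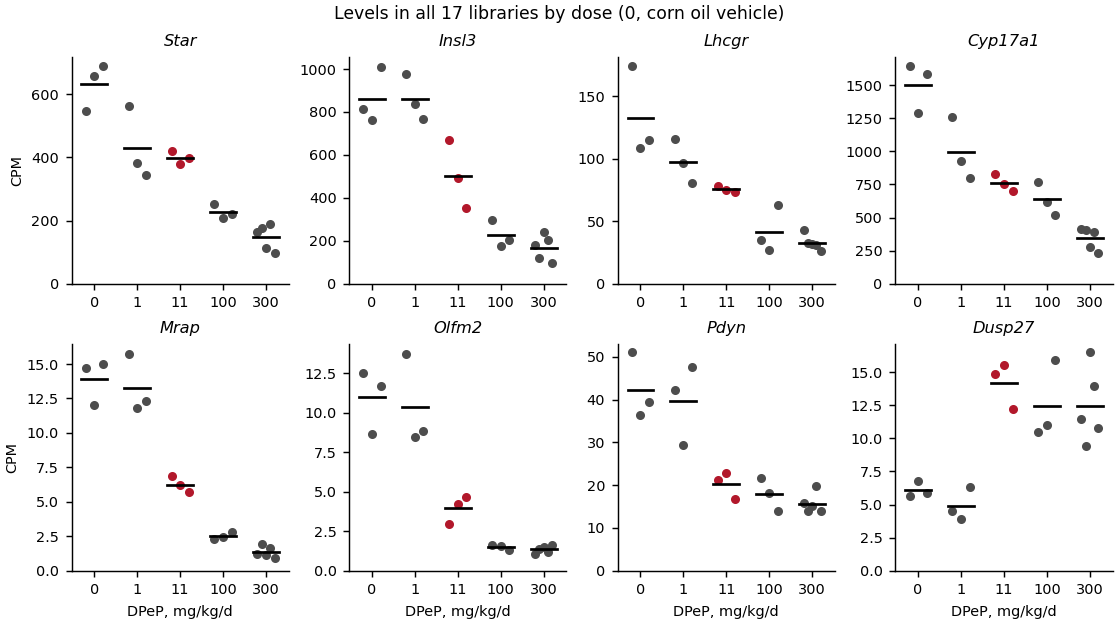
CPM of 8 genes in all 17 libraries by DPeP dose in mg/kg/d (x axis, 0 is corn oil vehicle; the 11 mg/kg/d libraries are red, lines mark group means). Mrap, Olfm2, Pdyn and Dusp27, among the genes with the smallest p for 11 mg/kg/d against vehicle, lie near vehicle at 1 mg/kg/d and apart from it at 11 mg/kg/d. Star and Cyp17a1 at 1 mg/kg/d lie between vehicle and 300 mg/kg/d.

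Against the next lower dose, 1 gene of 18005 was called in edgeR (0.00555%). It was Dusp27, with 14.9, 15.6 and 12.2 CPM at 11 mg/kg/d, against 4.49, 3.90 and 6.30 CPM at 1 mg/kg/d, and it rose by 1.53 ± 0.23 on the log2 scale (adjusted p = 0.0265). Dusp27 was called in 12 of the 16 alternatives. The call was lost when library 03 or 16 at 11 mg/kg/d, or library 02 or 09 at 1 mg/kg/d, was left out, each giving 0 genes. Olfm2 differed by -1.38 (adjusted p = 0.0686), Mrap by -1.09 (0.117) and Gsta2 by -2.07 (0.117), while Star differed by -0.11 and Cyp17a1 by -0.39, both with adjusted p of 0.9996. Dusp27, Olfm2, Mrap and Gsta2 were among the genes with the smallest p against vehicle, a comparison that uses the same 3 libraries at 11 mg/kg/d. Part of their difference from 1 mg/kg/d may therefore come from that choice.

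Against the next higher dose, 854 genes (4.74%) were called in edgeR, 467 higher and 387 lower at 100 than at 11 mg/kg/d. Among the genes above, Star fell by 0.81 ± 0.21 on the log2 scale (adjusted p = 0.0403), Insl3 by 1.16 ± 0.27 (0.0355), Cyp11a1 by 0.72 ± 0.17 (0.0355), Scarb1 by 1.08 ± 0.20 (0.0171), Lhcgr by 0.87 ± 0.24 (0.0465) and Mrap by 1.32 ± 0.22 (0.00975). Olfm2 and Gsta2 fell by 1.41 and 3.30 (0.0171 and 0.00975). Cyp17a1 differed by -0.25 (0.432) and Pdyn by -0.18 (0.580), so that they were not shown to differ between the 2 doses. These calls rest on the libraries at 100 mg/kg/d, of which 05 and 18 stand apart: without both, 0 genes were called, and adjusted p of all the genes in this paragraph was 0.416 or more. The log2 difference was then -0.85 for Star and -1.15 for Mrap, close to that with all libraries, but -0.27 for Lhcgr and -0.56 for Cyp17a1, which moved by more than 1.5 times in opposite directions, and -0.55 for Pdyn. Leaving out 1 library gave 16 calls without 05, 0 without 18 and 5886 without 19 at 100 mg/kg/d, and 25, 256 and 14 without 03, 16 and 17 at 11 mg/kg/d.

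The titles also carry a sample code, whose meaning the labels do not give. Libraries 03 and 17 share code S447 with vehicle 15, library 16 shares S448 with vehicle 01, and vehicle 08 has a code with no 11 mg/kg/d library. Within these codes the log2 ratio of 11 mg/kg/d to vehicle was -1.05 and -1.13 for Cyp17a1, -1.62 and -1.56 for Olfm2, -1.26 and -1.25 for Mrap, -0.75 and -0.53 for Star, and -0.99 and -0.73 for Insl3. RGD1311744 had 1.83 and 0.95 and Dusp27 1.20 and 1.47. The groups did not overlap for any of these genes, so each pair had to have the sign of the fold change over all 6 libraries. The shared sign therefore tests nothing about the code. With the code as a term in the edgeR fit of all libraries, 1 gene was called, Olfm2, as lower at 11 mg/kg/d.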

How the data were processed

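The submitters' processing notes name Trimmomatic 0.36, STAR 2.5.2b, featureCounts and Subread 1.5.2, the build mRatBN7.2, and also DESeq2 and limma, with no roles or order. The authors deposited raw counts per gene. A deposited TPM table (counts over gene length, scaled) and a deposited table of log2 values were not used, and the TPM given were computed from counts and gene lengths.

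The count table held 47125 rows for 30652 identifiers. Each was kept once and 92 ERCC spike-in rows were dropped, leaving 30560 genes, 24044 of them with a symbol. The NEBNext Ultra II kit does not mark strand, per the labels' protocols, and the labels do not give the strand setting of the counting.

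All 17 libraries were fitted together with edgeR 4.0.16 in R 4.3.3 (TMM, filterByExpr, quasi-likelihood F test, Benjamini-Hochberg over 18005 genes, called under 0.05, 12 residual degrees of freedom). SE was taken as the absolute log2 fold change divided by the root of F. Scripts were tested on simulated data. Alternatives used DESeq2 1.42.0 and limma 3.58.1.

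The members, gene lists and named genes were chosen with earlier results of these data known. Named genes were the phthalate panel, called genes, the 12 genes per direction with the smallest p among separated genes of at least 1 CPM, and members of each list. Some others were named after their values were seen: Fdx1, Msmo1, Me1, Gsta1, Mgst1, Mgst2, Fabp3, Ppara, Pparg, Myh11, Nodal, Akr1c14 and Hsd17b3. Not every gene selected is described. Replicates differed by more than counting noise.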

Additional observations from a re-analysis of the deposited data

How the results depend on the processing

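Of the 926 fold changes of the named genes recomputed under 16 alternatives, 845 kept direction and stayed uncalled, 67 kept direction and were called, and 14 changed direction. For 11 mg/kg/d against vehicle the count of called genes, 0 in the main fit, was 26 with DESeq2, 19 with no filter on low counts, 19 without libraries 05 and 18 at 100 mg/kg/d, 10 with the 2 groups alone, 10 at an adjusted p under 0.1, 2 with limma voom, 2 without TMM, 1 with the sample code as a term, 1 with robust dispersions (an alternative chosen after seeing the data), and 0 to 2 with 1 library left out. For 11 against 1 mg/kg/d it was 1 in the main fit, 10 with DESeq2, 6 with no filter, 5 with the 2 groups alone, 4 with limma voom, 2 without libraries 05 and 18, and 0 to 1 with 1 library left out. For 100 against 11 mg/kg/d it was 854 in the main fit, 2215 with DESeq2, 163 with the sample code as a term, 2 with the 2 groups alone, 0 without libraries 05 and 18, and 0 to 5886 with 1 library left out. The cause of these shifts was not tested.

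Direction changed for 4 genes with values near 0. Dhcr7 (0.005 in the main fit) was -0.0058 with a mean of at least 1 CPM, -0.0057 with limma voom, -0.080 with the sample code, -0.005 without libraries 05 and 18, and -0.13 to 0.12 with 1 library left out. Amh was -0.17 to 0.063 with 1 library left out. Gstt3 was -0.0193 with the sample code and -0.050 to 0.36 with 1 library left out. Zp2 was 0.25 with the sample code and -0.51 to 0.53 with 1 library left out. Vnn3, Lefty2, Nodal and Nsun7 lie at a few CPM or less, where counting error is largest. No paired analysis was possible because the groups share no replicate number.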
